A study of Homo sapiens with 6 samples.

Results

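The ADAM and ADAMTS genes encode zinc-dependent proteases of the adamalysin group, and 39 of the 58735 genes in the count table belong to them. Members were the protein-coding genes of GENCODE release 29 whose symbol is ADAM or ADAMTS followed by digits alone, which gave 20 ADAM and 19 ADAMTS genes. Their transcripts were compared between HCT116 cells with a lentiviral vector without insert and HCT116 cells with a lentiviral SETD8 construct, HCT116 being an established cell line from a human colorectal carcinoma. SETD8, now named KMT5A, is a histone lysine methyltransferase, and the title of the series concerns its action on the coactivator YAP. Each group had 3 libraries of poly(A)-selected RNA, and both were selected with puromycin. The labels give the vector group the genotype WT and the other group SETD8 overexpression. The labels speak of transduction and stable clones, and the design text of transfection, without saying whether a library came from 1 clone or a pool, and the sources used here do not give the promoter that drives SETD8. Separate cultures are not stated for the replicates, and the p-values then reflect the spread among these 6 libraries alone, which may be technical.

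ADAM proteins are anchored in the membrane, and those with an intact active site release the outer parts of other membrane proteins, a step called ectodomain shedding. ADAMTS proteins are secreted, carry thrombospondin repeats that hold them in the extracellular matrix, and cut matrix proteins such as procollagens and proteoglycans. In colorectal epithelium ADAM10 and ADAM17 are known as the sheddases of Notch receptors and of ligands of the epidermal growth factor receptor.

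Libraries held 17056672 to 20471843 counts, so that 3 counts stood at 0.150 to 0.174 CPM (the usual count unit relative to library size, here scaled with TMM factors), a floor that covers counting error only. KMT5A itself had 46.0, 47.3 and 53.9 CPM in vector replicates 1, 2 and 3 and 65.4, 66.2 and 75.5 CPM in SETD8 replicates 1, 2 and 3 (log2 fold change 0.49 with an SE of 0.10, edgeR adjusted p = 0.0156). Along the leading principal component (46.4% of the variance of log2 CPM), the SETD8 libraries lay between -23.8 and -16.5, vector replicates 2 and 3 at 25.7 and 39.3, and vector replicate 1 between the groups at -0.94. Mitochondrial transcripts took 5.95% to 7.77% of counts in vector and 4.91% to 5.36% in SETD8 libraries, and the part of this difference in the results below was not tested. Epithelial markers were abundant (summed 11270 to 13891 CPM with vector and 11995 to 13471 CPM with SETD8), with the exception of VIL1 at a mean of 0.06 CPM. Single markers differed, with CDH1 lower (log2 fold change -0.54) and CLDN4 (0.46) and CLDN7 (0.43) higher (edgeR adjusted p = 0.0218, 0.0156 and 0.0444). Markers of other cell types were low, and COL1A1 made up most of the fibroblast sum. The 10 fibroblast markers summed to 4.85 to 7.32 CPM with vector and 3.50 to 4.83 CPM with SETD8, with COL1A2, DCN, PDGFRA, FAP and POSTN at 0. The 8 endothelial markers summed to 1.40 to 2.65 and 1.11 to 2.07 CPM, with KDR and EMCN at 0. The 8 immune markers summed to 1.90 to 3.19 and 1.06 to 1.81 CPM, with PTPRC and CD3E at 0. The part of these lower sums in the results was not tested.

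HCT116 libraries held counts for 26 of the 39 genes, and 15 were abundant enough to be tested. Some of the 26 had so few counts that expression is uncertain, such as ADAMTS8 with 1 count in 1 library. The 13 genes with 0 counts in all 6 libraries were ADAM2, ADAM7, ADAM18, ADAM20, ADAM23, ADAM29, ADAM30, ADAM33, ADAMTS3, ADAMTS5, ADAMTS9, ADAMTS18 and ADAMTS19. Several of these, such as ADAM2, ADAM18, ADAM20, ADAM29 and ADAM30, are known for expression in the testis. A further 11 genes had at most 14 counts (0.725 CPM) in any library and did not pass the low-count filter: ADAM8, ADAM12, ADAM28, ADAM32, ADAMTS1, ADAMTS4, ADAMTS6, ADAMTS8, ADAMTS12, ADAMTS15 and ADAMTS20. None of the 7 proteases known for cutting proteoglycans (ADAMTS1, ADAMTS4, ADAMTS5, ADAMTS8, ADAMTS9, ADAMTS15 and ADAMTS20) was therefore tested, and differences in them were not detectable at this depth. The 15 tested genes had at least 1.11 CPM in each of the 6 libraries, so none was tested through 1 group alone.

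With SETD8, 5 of the 15 tested genes fell, namely ADAM19, ADAMTS2, ADAMTS7, ADAMTS14 and ADAMTS16, and 0 rose (edgeR's quasi-likelihood test at an adjusted p under 0.05 by Benjamini-Hochberg over 14370 genes). At an unadjusted p under 0.05, 8 were lower and 0 higher. Many genes pass that cut-off, since a gene with an unadjusted edgeR p of 0.0494 ranked 3711 among the 14370. DESeq2 called 6 lower and 0 higher, against 907 and 739 of all genes. In limma-voom 5 were lower and 0 higher, against 621 and 469 of all genes. Over all tested genes edgeR called 4.75% lower and 3.08% higher at the adjusted threshold, 7.83% in all (682 and 443 genes, or 505 and 792 when scaled by library totals). The log2 fold change was negative in 14 of the 15 genes against 50.0% of all genes, and its median was -0.65 against 0.00 over all genes. Groups did not overlap in 8 of the 15, against 30.3% of all genes. Of the 8 tested ADAM genes only ADAM19 fell, and the median of these 8 was -0.20. Of the 7 tested ADAMTS genes 4 fell and all 7 had a negative log2 fold change, with a median of -0.70. Whether the families differ from each other was not tested. These are bulk libraries, in which fewer expressing cells and less RNA per cell cannot be told apart.

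**Figure D1:**
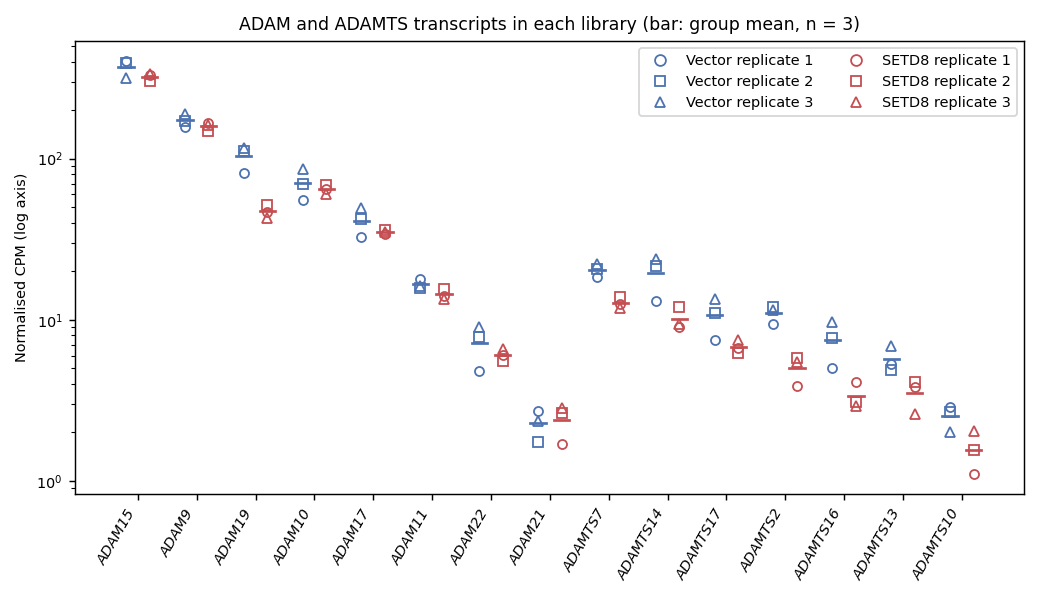
Normalised CPM (log axis) of the 15 tested ADAM and ADAMTS genes in each library, with vector libraries in blue, SETD8 libraries in red, replicates 1, 2 and 3 as circles, squares and triangles, and group means (n = 3) as bars. The 3 SETD8 values of ADAM19 lie between 43.2 and 51.9 CPM, below the 3 vector values at 81.8 to 117 CPM, while those of ADAM10 lie within the vector range.

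ADAM19 was the member with the smallest p-value, ranked 3 among the 14370 genes. It encodes an active membrane sheddase, also called meltrin beta, that is known to release neuregulin. The gene (ENSG00000135074) lies on the minus strand of chromosome 5 from 157395534 to 157575775 of GRCh38. Vector replicates 1, 2 and 3 held 1500, 2230 and 2024 counts (81.8, 111 and 117 CPM), and SETD8 replicates 1, 2 and 3 held 880, 1003 and 742 counts (46.6, 51.9 and 43.2 CPM). All SETD8 libraries were below all vector libraries, and vector replicate 1 was the lowest of its group. Mean levels of 103 ± 18.8 and 47.2 ± 4.41 CPM (SD, n = 3 each) gave a 2.18-fold fall (log2 fold change -1.13, SE 0.13, 95% interval -1.40 to -0.85, edgeR adjusted p = 0.00262). ADAM19 passed the test whichever library was left out, with log2 fold changes of -1.27 to -1.03 and a highest edgeR adjusted p of 0.0401. Of its exon bases, 0.80% overlap exons of CYFIP2 on the other strand, which had a log2 fold change of -0.25 and did not pass (edgeR adjusted p = 0.0856). Whether counting used strand is not known from the sources used here. The nearest tested protein-coding genes outside its borders, MED7 (0.11) and THG1L (0.06), did not pass (edgeR adjusted p = 0.697 and 0.761).

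The remaining ADAM genes did not pass the test, and their log2 fold changes were between -0.25 and 0.07. ADAM10 and ADAM17, the sheddases of Notch receptors and of tumour necrosis factor, showed overlapping groups. ADAM10 had 55.1, 70.0 and 86.2 CPM in vector replicates 1, 2 and 3 and 64.5, 68.6 and 60.6 CPM in SETD8 replicates 1, 2 and 3 (log2 fold change -0.12, 95% interval -0.41 to 0.16, edgeR adjusted p = 0.589). All of its SETD8 values lay within the vector range. ADAM17 had 32.5, 42.3 and 49.2 CPM and 34.3, 36.2 and 35.2 CPM (log2 fold change -0.23, 95% interval -0.52 to 0.06, edgeR adjusted p = 0.296). Vector replicate 1 lay below all SETD8 libraries for both genes, and without it the ADAM17 log2 fold change was -0.38 (edgeR adjusted p = 0.0132). Without vector replicate 3 the ADAM17 value was -0.08 (edgeR adjusted p = 0.730), and with a correction for transcript length -0.09 (edgeR adjusted p = 0.653). For ADAM10 the same fits gave 0.05 and 0.08 (edgeR adjusted p = 0.847 and 0.662). The exons of ADAM17 overlap those of IAH1 on the other strand by 12.3% of their length, and IAH1 had a log2 fold change of 0.02 (edgeR adjusted p = 0.922).

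ADAM15 and ADAM9, which encode broadly expressed sheddases, were the most abundant members. ADAM15 had 402, 392 and 318 CPM in vector replicates 1, 2 and 3 and 330, 304 and 335 CPM in SETD8 replicates 1, 2 and 3 (log2 fold change -0.20, 95% interval -0.41 to 0.02, edgeR adjusted p = 0.226). Exons of ADAM15 overlap those of DCST1, which held 5 to 9 counts per library, by 4.65% of their length. Vector replicate 3 of ADAM15 lay among the SETD8 values, and without it ADAM15 passed with a log2 fold change of -0.30 (edgeR adjusted p = 0.0168). ADAM9 had 158, 172 and 189 CPM and 168, 149 and 162 CPM (log2 fold change -0.12, 95% interval -0.31 to 0.08, edgeR adjusted p = 0.429). ADAM11 and ADAM22 belong to the members that lack a working active site and are known as adhesion proteins of neurons. ADAM11 had 17.8, 15.7 and 16.3 CPM against 14.0, 15.6 and 13.6 CPM (log2 fold change -0.20, 95% interval -0.47 to 0.06, edgeR adjusted p = 0.318), groups that did not overlap but nearly touched. ADAM22 ranged from 4.80 to 9.05 CPM with vector and from 5.54 to 6.57 CPM with SETD8 (log2 fold change -0.25, edgeR adjusted p = 0.494). ADAM21, a gene known for testis expression that has pseudogene copies, had 1.75 to 2.73 and 1.69 to 2.85 CPM (log2 fold change 0.07, edgeR adjusted p = 0.905). Its copy ADAM21P1 held 1 to 9 counts per library, and how reads were split between them is not known here.

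ADAMTS2 and ADAMTS14 encode procollagen N-propeptidases, which remove the amino-terminal propeptide of fibrillar procollagens, and both fell. ADAMTS3, the other member of this group, had 0 counts. ADAMTS2 (ENSG00000087116) lies on the minus strand of chromosome 5 from 179110851 to 179345430. Vector replicates 1, 2 and 3 held 174, 240 and 200 counts (9.48, 12.0 and 11.5 CPM) and SETD8 replicates 1, 2 and 3 held 73, 112 and 94 counts (3.87, 5.80 and 5.47 CPM). The groups were apart by more than the range within either one. The fall was 2.18-fold, with means of 10.995 ± 1.33 and 5.04 ± 1.03 CPM (SD, n = 3 each) and a log2 fold change of -1.12 (SE 0.19, 95% interval -1.53 to -0.72, edgeR adjusted p = 0.00699). ADAMTS2 did not pass in the fits that left out vector replicate 2 (log2 fold change -1.05, edgeR adjusted p = 0.0632) or SETD8 replicate 1 (-0.96, edgeR adjusted p = 0.0508).

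ADAMTS14 (ENSG00000138316) lies on the plus strand of chromosome 10 from 70672803 to 70762441. Its values were 13.1, 21.5 and 23.9 CPM in vector replicates 1, 2 and 3 and 9.00, 12.0 and 9.42 CPM in SETD8 replicates 1, 2 and 3. Vector replicate 1 came close to the highest SETD8 library, without overlap. The fall was 1.92-fold, with means of 19.5 ± 5.69 and 10.1 ± 1.60 CPM (SD, n = 3 each) and a log2 fold change of -0.94 (SE 0.20, 95% interval -1.38 to -0.51, edgeR adjusted p = 0.0181). ADAMTS14 no longer passed when vector replicate 2 was left out (edgeR adjusted p = 0.108) or when SETD8 replicate 1, 2 or 3 was (0.101, 0.0531 and 0.0944), with log2 fold changes of -1.08 to -0.86. Summed over the 3 propeptidase genes, the mean was 30.5 CPM with vector and 15.2 CPM with SETD8.

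ADAMTS7 encodes a protease known to bind and cut cartilage oligomeric matrix protein, and it was the most abundant ADAMTS transcript by CPM. It lies on the minus strand of chromosome 15 from 78759203 to 78811431 (ENSG00000136378). It stood at 18.5, 20.6 and 22.4 CPM in vector replicates 1, 2 and 3 and at 12.5, 13.9 and 11.9 CPM in the SETD8 replicates in the same order. The gap between the groups was wider than the range within either one, though not by much for the vector group. The fall was 1.60-fold, with means of 20.5 ± 1.94 and 12.8 ± 1.00 CPM (SD, n = 3 each) and a log2 fold change of -0.68 (SE 0.13, 95% interval -0.96 to -0.40, edgeR adjusted p = 0.0114). ADAMTS7 no longer passed when vector replicate 2 was left out (edgeR adjusted p = 0.0741) or when SETD8 replicate 1 or 3 was (0.0714 and 0.0726), at log2 fold changes of -0.67 to -0.63. The pseudogene copies ADAMTS7P1, ADAMTS7P3 and ADAMTS7P4 held at most 4 counts in a library, and reads shared with such copies make the value uncertain. ADAMTS12, which encodes a protease with the same known substrate, had 3 counts in SETD8 replicate 1 and 0 elsewhere.

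ADAMTS16, ADAMTS17 and ADAMTS10 are less studied members. Variants of ADAMTS10 and ADAMTS17 are known from inherited disorders of fibrillin microfibrils. ADAMTS16 (ENSG00000145536, plus strand of chromosome 5 from 5140330 to 5320304) had 5.01, 7.73 and 9.74 CPM in vector replicates 1, 2 and 3 and 4.13, 3.11 and 2.91 CPM in SETD8 replicates 1, 2 and 3. Vector libraries differed from each other by more than SETD8 libraries did, and the groups did not overlap. The fall was 2.21-fold, with means of 7.50 ± 2.37 and 3.38 ± 0.66 CPM (SD, n = 3 each) and a log2 fold change of -1.14 (SE 0.25, 95% interval -1.68 to -0.60, edgeR adjusted p = 0.0192). The ADAMTS16 test was not passed when vector replicate 2 was left out (edgeR adjusted p = 0.107) or when SETD8 replicate 1, 2 or 3 was (0.0620, 0.0866 and 0.0986), at log2 fold changes of -1.31 to -1.05. ADAMTS17 had 7.52, 11.03 and 13.5 CPM against 6.67, 6.26 and 7.50 CPM and did not pass (log2 fold change -0.65, 95% interval -1.09 to -0.22, edgeR adjusted p = 0.0646), with vector replicate 1 almost level with SETD8 replicate 3. It passed without vector replicate 1 (log2 fold change -0.85, edgeR adjusted p = 0.00115), with the replicate block (edgeR adjusted p = 0.0489), without the low-count filter (edgeR adjusted p = 0.00844) and in DESeq2 (adjusted p = 0.0320). ADAMTS10 had 2.89, 2.70 and 2.02 CPM against 1.11, 1.55 and 2.04 CPM (log2 fold change -0.70, 95% interval -1.37 to -0.03, edgeR adjusted p = 0.173). ADAMTS13, the protease that cuts von Willebrand factor, had 5.34, 4.89 and 6.91 CPM against 3.81, 4.14 and 2.62 CPM without overlap and did not pass (log2 fold change -0.69, 95% interval -1.18 to -0.20, edgeR adjusted p = 0.0802). It passed without vector replicate 1 (edgeR adjusted p = 0.0347) and when no low-count filter was set (edgeR adjusted p = 0.0455).

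**Figure D2:**
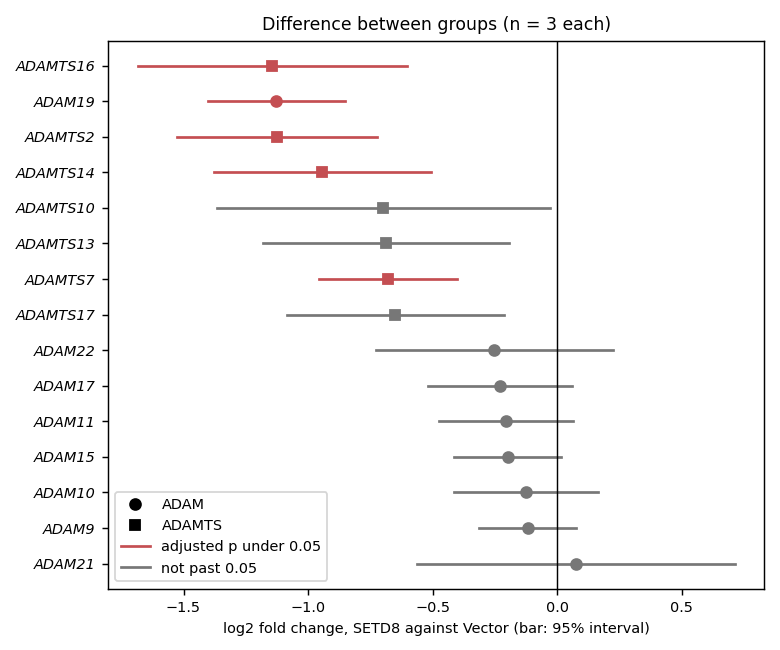
Log2 fold change of SETD8 against vector for the 15 tested genes (circles ADAM, squares ADAMTS; n = 3 per group), with bars for the 95% interval and red for edgeR adjusted p under 0.05. ADAM19, at -1.13, stands apart from the other ADAM genes (-0.25 to 0.07), and the 7 ADAMTS genes lie between -1.14 and -0.65.

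Vector replicate 1 was the vector library closest to the SETD8 mean for 9 of the 15 tested members, against 51.2% of all tested genes (log2 of CPM plus 0.5). The number of called members was 8 when it was left out, 1 when vector replicate 2 was, 6 when vector replicate 3 was (ADAM15 added), and 1, 3 and 2 when SETD8 replicates 1, 2 and 3 were. In the same order, 3509, 72, 1093, 11, 155 and 129 of all genes were called. ADAM19 was called in each of these fits, while each of the 4 ADAMTS calls was lost in at least 2 of them.

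**Figure D3:**
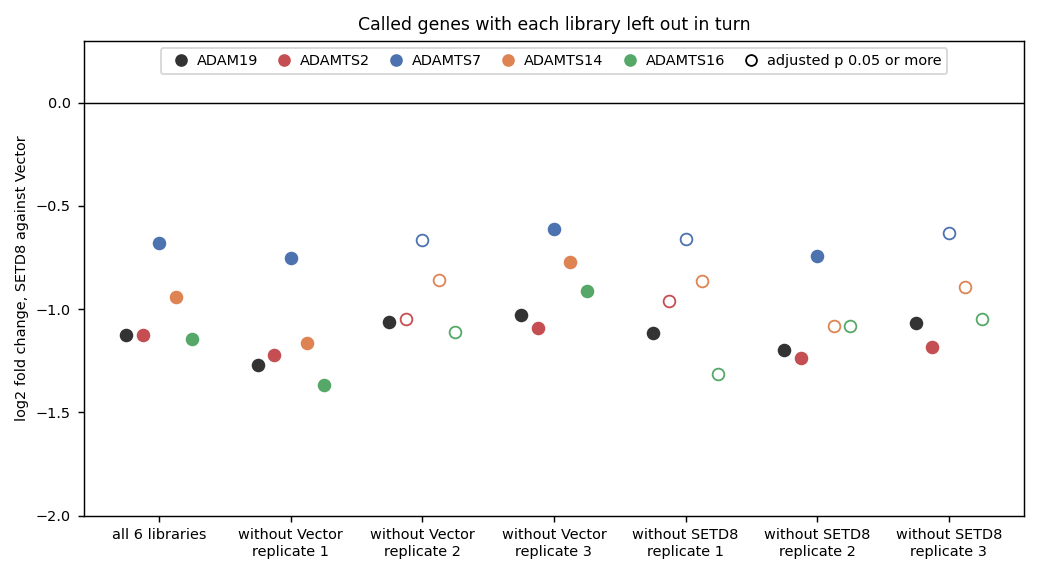
Log2 fold change (SETD8 against vector) of the 5 called genes with all 6 libraries and with each library left out in turn, with open circles where the edgeR adjusted p was 0.05 or more. The values of the 5 genes stay between -1.37 and -0.61 throughout, and only ADAM19 is filled in every column.

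The 4 called genes with an entry in the RefSeq promoter table (GRCh38.p14) are shown by the 250 bases before the annotated start, 5′ to 3′ on the gene's strand, because they fell together. Capitals mark the GC box GGGCGG on either strand (CCGCCC on the other), a motif bound by SP factors, and neighbouring matches overlap in places. The windows are chr5:157575776-157576025 (minus) for ADAM19, chr5:179345462-179345711 (minus) for ADAMTS2, chr10:70672256-70672505 (plus) for ADAMTS14 and chr15:78811465-78811714 (minus) for ADAMTS7.
ADAM19: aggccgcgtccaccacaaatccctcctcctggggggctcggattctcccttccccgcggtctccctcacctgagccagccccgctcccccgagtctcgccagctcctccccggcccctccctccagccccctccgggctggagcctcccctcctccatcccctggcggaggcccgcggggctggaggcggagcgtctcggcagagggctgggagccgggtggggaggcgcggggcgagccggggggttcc
ADAMTS2: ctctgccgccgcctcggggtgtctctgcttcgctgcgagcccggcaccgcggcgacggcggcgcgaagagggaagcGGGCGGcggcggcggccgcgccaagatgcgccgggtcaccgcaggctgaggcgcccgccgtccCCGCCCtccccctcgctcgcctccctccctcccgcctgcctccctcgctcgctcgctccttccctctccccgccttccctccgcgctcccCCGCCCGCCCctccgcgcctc
ADAMTS14: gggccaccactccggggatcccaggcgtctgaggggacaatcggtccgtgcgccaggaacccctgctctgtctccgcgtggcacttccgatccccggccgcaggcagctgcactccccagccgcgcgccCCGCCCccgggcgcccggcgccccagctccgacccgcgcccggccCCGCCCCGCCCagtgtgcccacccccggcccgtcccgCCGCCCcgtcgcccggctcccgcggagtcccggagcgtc
ADAMTS7: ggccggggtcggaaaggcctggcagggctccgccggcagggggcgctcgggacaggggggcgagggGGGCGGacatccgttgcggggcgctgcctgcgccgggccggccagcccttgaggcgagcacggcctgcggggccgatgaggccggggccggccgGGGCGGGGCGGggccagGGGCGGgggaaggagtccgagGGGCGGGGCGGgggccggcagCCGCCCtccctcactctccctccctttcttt
The windows are rich in G and C, at 76.4%, 80.0%, 80.4% and 80.8% for ADAM19, ADAMTS2, ADAMTS14 and ADAMTS7, against a median of 58.0% over 34786 promoter windows of the same length. They hold 21, 40, 35 and 29 CpG dinucleotides against a median of 11. ADAM19 holds 0 GC boxes, whereas ADAMTS2 and ADAMTS14 hold 4 each and ADAMTS7 holds 7, and 42.6% of all windows hold at least 1. Neither CATTCC, the core letters bound by the TEAD partners of YAP, nor TGANTCA, the AP-1 motif, occurs on either strand of these 4 windows. The first occurs in 11.9% and the second in 6.59% of all windows, and their absence says only that these letters are not in these bases. These traits were not particular to the called genes. Among genes that did not pass, ADAM15 had 79.6% GC, 36 CpG and 6 GC boxes. ADAMTS10 had 78.4%, 32 and 5 in 1 of its 2 windows. Both GC values were above that of ADAM19 and slightly below those of the 3 called ADAMTS genes. Other genes that did not pass had less, down to ADAM21 with 39.6%, 1 CpG and 0 GC boxes. Entries were found for 24 of the 39 members and 12 of the 15 tested ones. ADAMTS16, the fifth called gene, ADAM9 and ADAM11 were not found.

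Compared per length, levels in vector libraries covered a wide range. Dividing CPM by the kilobases of exon in GENCODE 29 gave, in CPM per kilobase (mean ± SD, n = 3), 56.3 ± 7.00 for ADAM15, 25.1 ± 2.25 for ADAM9 and 13.4 ± 2.44 for ADAM19, each apart from its neighbours by more than the SD. Next came ADAM10 (4.35 ± 0.96), ADAM17 (3.84 ± 0.78), ADAMTS14 (3.70 ± 1.08), ADAM11 (3.48 ± 0.23) and ADAMTS7 (2.65 ± 0.25). Among these, ADAM10, ADAM17, ADAMTS14 and ADAM11 did not differ from each other beyond the SD. ADAMTS17, ADAMTS16, ADAMTS2, ADAMTS13 and ADAM21 lay between 1.30 and 0.86, and ADAM22 and ADAMTS10 at 0.59 and 0.44. In SETD8 libraries ADAM19 had 6.13 ± 0.57 CPM per kilobase and still ranked behind ADAM15 and ADAM9 and above ADAM10 at 3.99 ± 0.25. Exon lengths cover all annotated transcripts, so genes with long alternative ends, such as ADAM10 with 16168 bases, are placed low.

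Summed over all members of each family, both families were lower with SETD8. ADAM transcripts summed to 756, 815 and 788 CPM in vector replicates 1, 2 and 3 and to 666, 635 and 659 CPM in SETD8 replicates 1, 2 and 3. ADAM15 made up 48.2% of the ADAM sum. The largest drops in mean CPM within it were those of ADAM19 (103 to 47.2) and ADAM15 (371 to 323). Of the tested ADAM genes only ADAM19 passed, so the lower sum does not stand for each member. ADAMTS transcripts summed to 62.8, 81.7 and 90.9 CPM and to 41.5, 47.7 and 42.2 CPM. The groups did not overlap in either sum. Mean sums were 786 ± 29.7 and 653 ± 16.1 CPM for ADAM and 78.5 ± 14.3 and 43.8 ± 3.41 CPM for ADAMTS (SD, n = 3 each; exact permutation p = 0.1 for each, two-sided, the smallest that 3 against 3 allows).

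Among genes that act with these proteases, the list of inhibitors and clearance receptors had the largest share of falls among the 8 lists. The lists were chosen with earlier results of these data known, so their shares are not independent of the data. Of its 8 tested genes 6 fell and 0 rose, where 4.75% of all tested genes were called lower and 3.08% higher. By unadjusted p under 0.05 the counts were 6 and 0, in DESeq2 6 and 0 and in limma-voom 5 and 0. The shares over all genes are those of the adjusted edgeR calls. More genes pass the unadjusted cut-off or DESeq2. TIMP3, which encodes the tissue inhibitor known to block both ADAM17 and ADAMTS proteases, had 7.41, 11.8 and 14.2 CPM in vector replicates 1, 2 and 3 and 6.89, 6.63 and 6.57 CPM in SETD8 replicates 1, 2 and 3 (log2 fold change -0.73 with an SE of 0.21, edgeR adjusted p = 0.0489). LRP1, an endocytic receptor that clears several ADAMTS proteases, fell by 0.94 on the log2 scale and PAPLN, which encodes the ADAMTS-like protein papilin, by 1.10 (edgeR adjusted p = 0.0233 and 0.0387). TIMP2, an inhibitor of matrix metalloproteases, had a log2 fold change of -0.39 (edgeR adjusted p = 0.0181). SERPINA1 (-1.63) and SERPINA5 (-1.44), inhibitors of serine proteases, were known to have fallen when the list was written, and without both the count was 4 of 6. TIMP1 (-0.10, edgeR adjusted p = 0.531) and RECK (-0.19, edgeR adjusted p = 0.649) did not pass. The count of 6 was 6 and 4 when vector replicates 1 and 3 were left out, but 1 when vector replicate 2 was and 0, 1 and 1 when SETD8 replicates 1, 2 and 3 were.

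NRG1, which encodes the neuregulin that ADAM19 is known to release, moved the other way from ADAM19. It had 5.23, 5.09 and 4.09 CPM in vector replicates 1, 2 and 3 and 8.32, 9.47 and 10.2 CPM in SETD8 replicates 1, 2 and 3 (log2 fold change 0.95 with an SE of 0.17, edgeR adjusted p = 0.00979). The groups did not overlap, and NRG1 was the only 1 of 7 tested ligands of the epidermal growth factor family to pass, with 0 lower in edgeR, DESeq2 and limma-voom and 1 lower at an unadjusted p under 0.05. NRG1 did not pass without vector replicate 2 or without any 1 of the SETD8 replicates. Other ligands that ADAM10 and ADAM17 release did not pass, with log2 fold changes of 0.00 for AREG, 0.21 for EREG, -0.28 for HBEGF and -0.26 for TGFA (edgeR adjusted p = 0.982, 0.154, 0.274 and 0.0851). Of 32 other tested membrane proteins known to be cut by ADAM proteases, 7 fell and 1 rose, against 4.75% lower and 3.08% higher over all tested genes. The 4 with the smallest p among these were AXL (-0.77), APLP2 (-0.41), L1CAM (-0.40) and CDH1 (-0.54), with edgeR adjusted p of 0.00318, 0.0161, 0.0181 and 0.0218. The gene that rose was MICB, which encodes a stress ligand of natural killer cells (0.53, edgeR adjusted p = 0.0374). Regulators of ADAM maturation and traffic showed 1 fall and 1 rise among 21 tested, close to the shares over all genes. TSPAN33, one of the tetraspanins that escort ADAM10 to the surface, rose by a log2 fold change of 0.48 (edgeR adjusted p = 0.0181), and the disulfide isomerase gene PDIA6 had -0.38 (edgeR adjusted p = 0.0241). RHBDF2, which encodes the iRhom that escorts ADAM17, and FURIN, a convertase that removes prodomains, did not pass (-0.25 and -0.34, edgeR adjusted p = 0.127 and 0.0535).

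Genes on the matrix side of the ADAMTS proteases fell in several lists, where 4.75% of all tested genes were called lower and 3.08% higher. Of 10 tested matrix substrates 4 fell and 0 rose, namely THBS1 (-1.08), VCAN (-0.60), FN1 (-0.92) and SDC4 (-0.39), while the procollagen gene COL1A1 did not pass at 5.48 against 4.11 CPM (log2 fold change -0.41, edgeR adjusted p = 0.236). Of 18 tested genes for procollagen processing and crosslinking 6 fell and 0 rose. Among these, LOXL2, which encodes a lysyl oxidase, had 88.6, 131 and 141 CPM in vector replicates 1, 2 and 3 and 65.3, 78.8 and 60.7 CPM in SETD8 replicates 1, 2 and 3 (log2 fold change -0.82 with an SE of 0.16, edgeR adjusted p = 0.0148). The lysyl hydroxylase gene PLOD1 (-0.50), the prolyl hydroxylase gene P3H1 (-0.51) and BMP1, which encodes the procollagen C-proteinase (-0.42), fell as well (edgeR adjusted p = 0.0141, 0.0217 and 0.0226). Of 4 tested ADAMTS-like genes PAPLN and THSD4 (-0.79, edgeR adjusted p = 0.00848) fell and 0 rose, and ADAMTSL4 (-0.89) and ADAMTSL5 (-0.01) did not pass (edgeR adjusted p = 0.170 and 0.986). In these 3 lists DESeq2 and limma-voom also called 0 higher, as did an unadjusted p under 0.05. The 12 genes that add sugars to thrombospondin repeats or supply them showed 0 calls in edgeR, DESeq2 and limma-voom, with 1 lower and 2 higher at an unadjusted p under 0.05. Over all related lists, without the ADAM and ADAMTS members, 23 of 109 tested genes fell and 3 rose, with a median log2 fold change of -0.19. SERPINA1 and SERPINA5, known beforehand to have fallen, are among the 23, and all lists were chosen with earlier results known. The called genes PAPLN, LRP1 and SDC4 each stand in 2 lists and were counted once. That total of 26 calls became 45 when vector replicate 1 was left out, 3 when vector replicate 2 was, and 1, 5 and 3 when SETD8 replicates 1, 2 and 3 were. In each of the fits without vector replicate 2 or a SETD8 replicate, no list had more than 1 call.

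**Figure D4:**
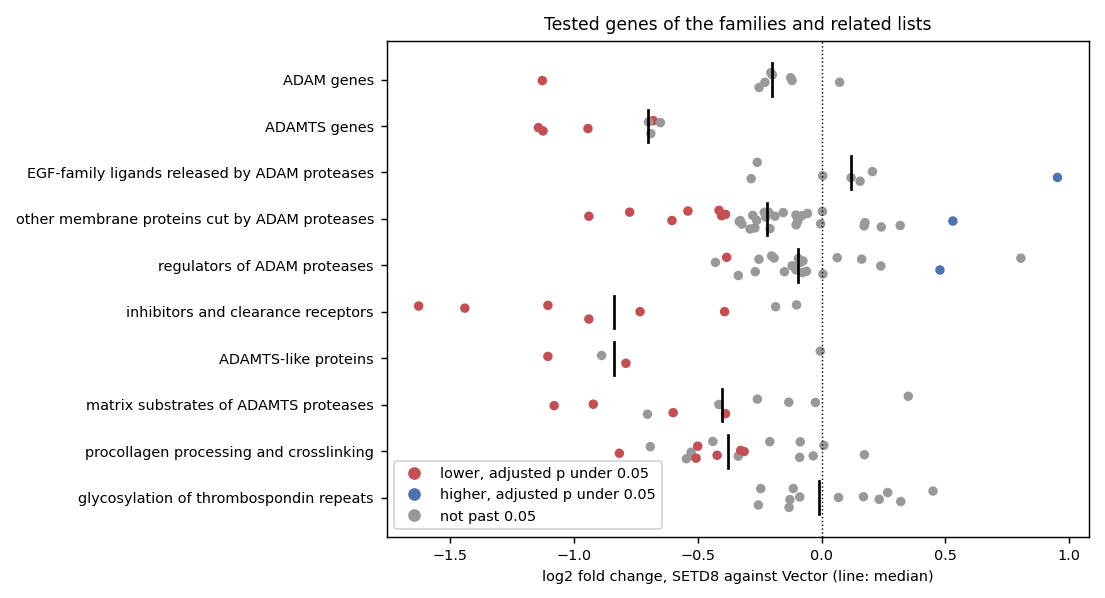
Log2 fold change (SETD8 against vector) of each tested gene in both families and in the related lists, with medians as black lines, red for lower and blue for higher at edgeR adjusted p under 0.05, and grey for the rest. The medians were -0.70 for ADAMTS genes, -0.84 for inhibitors and clearance receptors and -0.01 for the glycosylation list, where no gene is coloured. Without SERPINA1 and SERPINA5, known to have fallen when the list was written, the inhibitor median was -0.56.

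Of the nearest tested protein-coding genes on either side of the called ADAMTS genes, some fell and more did not pass. Over all tested genes 4.75% were called lower and 3.08% higher. Those that fell were SGPL1 after ADAMTS14 (-0.34), ICE1 after ADAMTS16 (-0.47) and CTSH after ADAMTS7 (-0.44), with edgeR adjusted p of 0.0288, 0.0254 and 0.0295. SGPL1, ICE1 and CTSH lay 53520, 100360 and 109627 bases away, and whether nearness has a part in their falls was not tested. On the other side PRF1, IRX4 and CHRNB4 did not pass (-0.19, -0.25 and -0.13, edgeR adjusted p = 0.185, 0.0947 and 0.853), nor did ZNF354B and RUFY1 beside ADAMTS2 (-0.52 and -0.11, edgeR adjusted p = 0.294 and 0.566). MORF4L1, whose locus overlaps that of ADAMTS7, had 0.29 (edgeR adjusted p = 0.0604). Beside the members that were not called, SRI rose, 2229 bases after ADAM22 (0.42, edgeR adjusted p = 0.0434). No other nearest gene of those members passed.

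The lengths of the members differ from those of other genes. Tested members had a median of 6913 exon bases and called members 7704, against 4745 over all tested genes. With a correction for transcript length all 5 calls remained (highest edgeR adjusted p = 0.0134), and the same 5 genes were called with library totals, DESeq2-type size factors, the stricter filter and limma-voom. Scaling by library totals in place of TMM moved the all-gene median by 0.043 on the log2 scale.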

How the data were processed

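The authors deposited whole-number read counts per Ensembl gene, not normalized, for 58735 IDs in 6 libraries of poly(A)-selected RNA made with the TruSeq Stranded mRNA kit, per the labels' protocols. The submitters' processing notes list the aligners STAR and HISAT2, the counters HTSeq and featureCounts, and GRCh38 or hg38, without roles or versions. Annotation and strand setting were not found in the sources used here. Columns named NC were taken as the vector group, since no other group remains beside SETD8, and numbers gave replicates. Of the columns, 0 belonged to other samples.

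Genes passing filterByExpr (14370) were compared with edgeR's robust quasi-likelihood test after TMM scaling (edgeR 4.0.16, limma 3.58.1, DESeq2 1.42.0, R 4.3.3), two-sided and without covariates, with Benjamini-Hochberg adjustment over all tested genes and a threshold of 0.05. The test was also run on simulated counts (5 runs with 200 changed genes each), in which 8.00% of calls were false. Of changes of 1.5-, 2- and 4-fold, 57.3%, 77.9% and 96.1% were recovered. The SE was derived from the log2 fold change and the F statistic, and 95% intervals use the test's degrees of freedom. Positions and lengths came from GENCODE 29, and promoter windows from RefSeq. Alternatives were other scaling, filters and tools, a replicate block, a length correction (lowess, span 0.3) and leaving out each library.

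Every ADAM and ADAMTS gene was named, KMT5A as a check of the labels, and of each related list the called genes, or the 4 with the lowest adjusted p where more were called. Neighbouring genes and TIMP1, TIMP3, RECK, RHBDF2, FURIN, COL1A1, ADAMTSL4, ADAMTSL5, AREG, EREG, HBEGF, TGFA, MICB, CLDN4 and CLDN7 were added after their values were seen. Members and lists were chosen with earlier results of these data known. Genes were not searched for all near-identical copies.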

Additional observations from a re-analysis of the deposited data

How the results depend on the processing

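The direction of every called member was kept under all 14 alternatives. Leaving out libraries gave 1 to 8 called members (5 with all libraries), 11 to 3509 called genes overall (1125) and 1 to 45 called genes of the related lists (26). With no low-count filter 2000 genes were called overall. Library totals gave 792 higher genes (443 with TMM), which moved the split of calls. Libraries with the same replicate number shared little deviation from their group means (correlations 0.025, 0.0078 and -0.064). That does not show whether they were prepared in pairs. With the replicate block ADAMTS17 joined the 5 called members (edgeR adjusted p = 0.0489). The summed CPM fell by 115 to 151 for ADAM and by 28.4 to 42.9 for ADAMTS genes without single libraries. Over 518 refits of named genes, 418 stayed on the same side of the threshold, 92 lost and 8 gained a call, and 0 changed sign after a call. At this depth 24 of the 39 members were at 0 or too low to test.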
